A study of Mus musculus with 4 samples.

Results

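The MHC class II and antigen processing genes described here are 10 mouse genes: Cd74, H2-Aa, H2-Ab1, H2-Eb1 and H2-DMa of the class II pathway, and B2m, Tap1, Tapbp, Psmb8 and Psmb9 of the class I pathway. They are read by 18 probe sets annotated to exactly 1 of these genes, of 20380 probe sets annotated to 1 gene and 22690 in all; 8 probe sets read the class II group and 10 the class I processing group. The genes were selected on the Hom and WT intensities, class II genes having read higher on the Hom array, so differences that involve Hom are given as a description, and those that involve WT are not independent of the choice. Total RNA of mouse mitral valve was hybridised to 4 single-colour oligonucleotide arrays. Hom mice carried 2 mutant copies of Fbn1, the fibrillin-1 gene, with the C1039G change (1 array); Het mice were labelled with 1 mutant copy and 1 normal copy, with the substituted residue left out of the label (2 arrays); WT mice had 2 normal copies (1 array). The labels used here give no age, strain or sex, and do not say whether an array stands for 1 animal or a pool, so a p-value here speaks for the spread of these arrays alone. Hom and WT had no replicate.

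Class II molecules are dimers of an alpha and a beta chain that carry peptides from engulfed material to helper T cells. They are made by macrophages, dendritic cells and B cells, and by other cells after exposure to interferon-gamma. The invariant chain Cd74 fills the groove of a new dimer, and H2-DM, of which H2-DMa is the alpha chain, later helps to exchange the remnant of Cd74 for peptide. Class I molecules are on nearly all nucleated cells and need beta-2 microglobulin (B2m). Their peptides are cut by the proteasome, in which Psmb8 and Psmb9 replace standard catalytic subunits, pumped into the endoplasmic reticulum by the transporter of which Tap1 is one part, and loaded with the help of tapasin (Tapbp).

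Promoter windows from the RefSeq-based table (GRCm38.p6) were examined for 8 of the 10 genes. Each window reached from 250 bases before to 50 bases after a start. That start was the gene's listed start for all of them but H2-DMa. Cd74 and H2-Ab1 were not examined in this way, which does not show that they lack a window. The windows of H2-Aa and H2-Eb1 are shown because these class II chains were high on the same arrays. Those of the class I pathway genes B2m and Psmb9 are shown because B2m was nearly level between Hom and WT and Psmb9 was lower in Hom. H2-Aa lies on the minus strand (window chr17:34287774-34288073), H2-Eb1 on the plus strand (chr17:34305617-34305916), B2m on the plus strand (chr2:122147437-122147736) and Psmb9 on the minus strand (chr17:34187281-34187580). Capitals mark GCAAC, the core of the X box, ATTGG, the core of the Y box and of any CCAAT box, the longer Y box CTGATTGG that contains it, and the interferon response motif, GAAA and again GAAA with 2 bases between, each searched on both strands.
H2-Aa: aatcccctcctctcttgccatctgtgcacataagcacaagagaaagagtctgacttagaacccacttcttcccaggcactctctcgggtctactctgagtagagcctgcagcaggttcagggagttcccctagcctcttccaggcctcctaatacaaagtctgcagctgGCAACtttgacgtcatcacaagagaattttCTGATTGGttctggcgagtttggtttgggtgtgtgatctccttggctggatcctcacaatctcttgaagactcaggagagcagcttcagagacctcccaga
H2-Eb1: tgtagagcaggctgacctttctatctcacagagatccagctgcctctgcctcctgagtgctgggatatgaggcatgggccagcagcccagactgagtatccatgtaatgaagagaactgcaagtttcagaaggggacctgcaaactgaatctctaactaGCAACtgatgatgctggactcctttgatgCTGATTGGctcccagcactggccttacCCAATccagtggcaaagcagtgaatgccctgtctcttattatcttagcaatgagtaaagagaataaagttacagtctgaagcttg
B2m: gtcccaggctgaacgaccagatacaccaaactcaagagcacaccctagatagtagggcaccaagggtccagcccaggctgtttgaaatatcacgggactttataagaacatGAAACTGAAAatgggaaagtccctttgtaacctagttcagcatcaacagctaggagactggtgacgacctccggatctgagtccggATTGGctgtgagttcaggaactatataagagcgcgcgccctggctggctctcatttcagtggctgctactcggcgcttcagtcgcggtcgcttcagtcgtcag
Psmb9: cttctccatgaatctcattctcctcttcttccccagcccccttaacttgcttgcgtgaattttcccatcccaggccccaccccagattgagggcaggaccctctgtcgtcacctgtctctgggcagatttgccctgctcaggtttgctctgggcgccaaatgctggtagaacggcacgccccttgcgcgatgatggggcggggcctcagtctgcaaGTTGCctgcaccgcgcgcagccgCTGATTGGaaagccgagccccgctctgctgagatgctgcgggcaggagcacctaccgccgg
The X and Y boxes are the elements bound by the RFX and NF-Y complexes, to which the class II transactivator Ciita attaches. In H2-Aa the GCAAC core began 81 bases and CTGATTGG 51 bases before the start, and in H2-Eb1 they began 91 and 62 bases before it, so the distances between them were 30 and 29 bases. CTGATTGG also stood in the Psmb9 window, 11 bases before the start, and in the Tap1 window, which shares 275 bases with that of Psmb9 on the other strand. Both windows also held GCAAC, 34 bases before the start of Psmb9 (on the other strand) and 196 before that of Tap1. The Psmb9 and Tap1 matches are the same stretch of letters read from either strand, with GCAAC and CTGATTGG on opposite strands. In H2-Aa and H2-Eb1 both lay on the gene's own strand. Having both motifs was thus not confined to class II genes, but the Psmb9 and Tap1 windows did not show the class II arrangement. The windows of H2-DMa, a class II gene, held GCAAC or ATTGG but not CTGATTGG. They began at chr17:34122582 and chr17:34125268, past the gene's listed start at 34119693. The letters at that listed start were not examined, so a Y box there is not excluded. B2m held ATTGG without the longer box, 53 bases before its start, and the interferon response motif 139 bases before it. Of the 32851 windows of this length that were searched, 4.1% held CTGATTGG, 37.4% ATTGG, 35.2% GCAAC and 3.44% the interferon response motif. These matches describe letters only.

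Intensities below are on a linear scale after median centring of the arrays, and are given in the order Hom, Het replicate 1, Het replicate 2 and WT. For log2 differences, values under an intensity of 19 (the 25th percentile of all values) were set to 19. Probe sets with a mean intensity of at least 62.5 (the median probe set) were kept for comparison with all others, which left 10397 probe sets and 11 of the 18 members. Het replicate 2 stood apart from the other arrays: its log2 differences from the other 3 arrays had an SD of 0.57 to 0.62 over the kept probe sets, against 0.34 to 0.39 among those 3. Its Actb 3' to 5' ratio was 3.04, against 2.16 to 2.25 on the others. Results that rest on it are therefore given with and without it.

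Every class II probe set read highest on Het replicate 2 and higher on Hom than on WT. In RNA of whole valve, fewer cells of a type and less RNA per cell cannot be told apart. H2-Aa, the alpha chain of the I-A dimer, read 910.2, 443, 1827 and 572 by its brighter probe set. Its other probe set read 105, 55.7, 189 and 68 on the same arrays. Both probe sets put the arrays in 1 order, with Het replicate 1 lowest, then WT, Hom and Het replicate 2.

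The beta chain of I-A, H2-Ab1, was read by 3 probe sets that did not order the arrays alike. The probe set named _s_at read 145, 131, 185 and 64.7, with WT below the other 3 arrays. The one named _a_at read 58.4, 68.4, 108 and 52.2, with WT lowest again but Hom close to it. The third, named _x_at, read 20, 5.07, 37.3 and 8.43, so that Het replicate 1 and WT were under the floor and the difference of Het replicate 2 from WT was at least 0.98 log2 units. Probe sets whose names end in _s_at or _x_at can bind several transcripts, and these include both of H2-Aa and 2 of the 3 of H2-Ab1.

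H2-Eb1, the beta chain of the I-E dimer, read 334, 245, 549 and 196, with WT lowest and Het replicate 2 highest. Cd74 read 197, 98.5, 339.9 and 166. Here Het replicate 1 was the lowest, and Hom exceeded WT by only 1.19-fold. H2-DMa read 68, 40.9, 83.8 and 48.9. Its mean intensity, 60.4, lay just under the filter, and its order of arrays was that of Cd74 and H2-Aa.

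**Figure D1:**
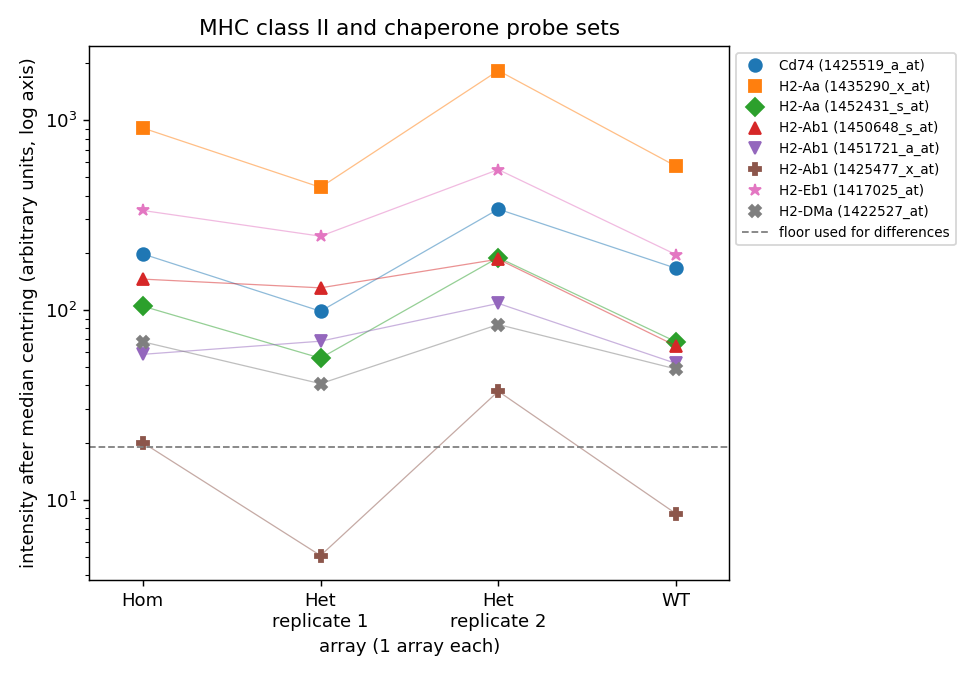
Intensity after median centring (log axis) of the 8 class II probe sets on the Hom array, the 2 Het arrays and the WT array; each point is 1 array, and the dashed line is the floor of 19. All 8 probe sets are highest on Het replicate 2, and H2-Aa reads 910.2 on Hom against 572 on WT by its brighter probe set.

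The class I processing genes did not follow the class II genes on Hom. B2m, the light chain of class I, read 2371, 1793, 3004 and 2250 by one probe set and 1519, 1169, 2333 and 1449 by the other. Hom and WT were within 1.05-fold of each other by both, with Het replicate 1 lowest and Het replicate 2 highest. Psmb8, a catalytic subunit of the immunoproteasome, read 74.8, 65.4, 132 and 113. Psmb9, its partner subunit, read 42.8, 36.3, 51.2 and 58.8 and lay under the filter. WT exceeded Hom 1.51-fold for Psmb8 and 1.37-fold for Psmb9.

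Tap1 had 1 probe set above the filter, at 61.1, 65.5, 111 and 82.8, with Hom lowest. Its 3 other probe sets were at or under the floor on all arrays but for 1 reading, so no fold is given for them. Tapbp was the 1 gene whose readings above the floor were lowest on Het replicate 2, at 201, 270.5, 188 and 293 by one probe set and 47.7, 47.9, 19.3 and 56.9 by the other. By both probe sets WT was the highest array.

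**Figure D2:**
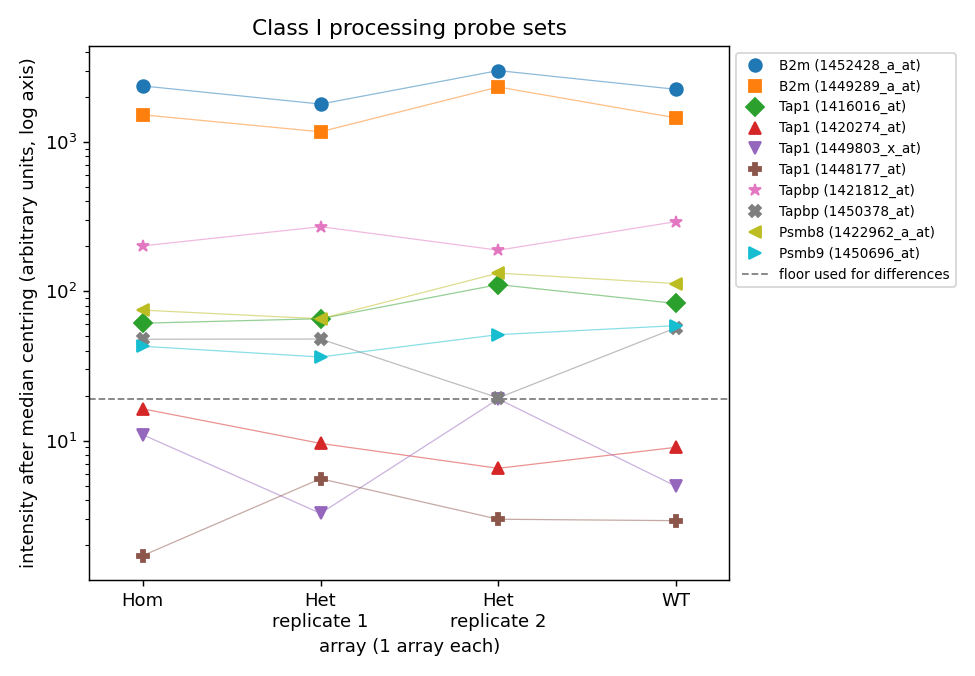
Intensity after median centring (log axis) of the 10 class I processing probe sets on the same arrays, 1 point per array, with the floor of 19 as a dashed line. B2m is nearly level between Hom and WT, Tapbp is lowest on Het replicate 2, and 3 Tap1 probe sets lie at or under the floor on nearly all arrays.

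Hom minus WT, the contrast by which the genes were chosen, gave log2 differences of 0.16 to 1.17 over the 7 class II probe sets and of -0.59 to 0.08 over the 7 class I processing probe sets that were above the floor on all arrays. The _x_at probe set of H2-Ab1, under the floor in WT, gave a bound of at least 0.08. H2-Ab1 by its _s_at probe set was 2.25-fold higher in Hom, whereas its _a_at probe set gave 1.12-fold. H2-Eb1 was 1.71-fold higher and H2-Aa 1.59-fold and 1.54-fold higher. The median was 0.65 log2 units over the 6 class II probe sets kept and 0.55 over all 8 with that 1 at its bound, and -0.44 over the 5 class I processing probe sets kept, against -0.03 over all probe sets kept. Of the 11 members kept, 8 were above WT in Hom, as were 46.2% of all kept probe sets. At least 1.5-fold higher in Hom were 4 members, a step that 3.63% of all kept probe sets reached, and at least 2-fold higher was 1 member, against 0.596%. No member was at least 2-fold lower, against 0.616%. With the scaling as deposited or quantile normalization in place of median centring, all 8 class II probe sets were likewise above WT in Hom.

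Het minus WT asked whether the same genes differ with 1 mutant copy. It subtracts the same lone WT array whose readings helped to choose the genes, so a low WT reading enters both and the values below give no independent support. No member passed limma's test with Benjamini-Hochberg adjustment over 10397 probe sets, and neither did any other probe set (0%); an unadjusted 0.05 was passed by 105 probe sets, or 1.01%, and by 1 of the 11 members. That member was H2-Ab1 by its _s_at probe set, with a mean Het minus WT difference of 1.27 log2 units (SE 0.50, limma adjusted p = 1), higher than WT in 2 of 2 Het arrays. It was also the only member at least 2-fold higher in the mean of the Het arrays, against 1.07% of all kept probe sets; 0 members were at least 2-fold lower, against 0.673%. Without Het replicate 2 its difference was 1.02. H2-Eb1 gave 0.91 (SE 0.56), and 0.32 without Het replicate 2. The _a_at probe set of H2-Ab1 gave 0.72 (SE 0.51), and 0.39 without that array; it passed the filter only through Het replicate 2, its mean intensity being 71.8 with that array and 62.4 without, where the filter was then 64.5. The spread of this test comes from the 2 Het arrays, with 1 residual degree of freedom.

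The Het arrays went opposite ways for much of the class II group. Relative to WT, Cd74 was at -0.75 log2 units on the Het replicate 1 array and at 1.03 on that of Het replicate 2. The brighter H2-Aa probe set was at -0.37 and 1.67, and H2-DMa at -0.26 and 0.78. For the 6 class II probe sets kept, Het replicate 1 had a median of 0.02 and Het replicate 2 one of 1.48, where all kept probe sets had medians of -0.001 and 0.17. The positive offset of all probe sets in Het replicate 2 came with median centring, since it was -0.07 with the scaling as deposited; the class II median was still 1.24 there. Without Het replicate 2, and with the filter redone, the class II median was -0.29 over the 5 probe sets left. The filter then dropped the _a_at probe set of H2-Ab1, and with it included the Het replicate 1 median was the 0.02 given above.

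Between the replicates of this 1 genotype, 5 of the 11 members were at least 2-fold higher in Het replicate 2 than in Het replicate 1, as were 7.99% of all kept probe sets, and 0 were at least 2-fold lower, against 3.17%. The 5 were Cd74, both H2-Aa probe sets, H2-Eb1 and Psmb8; with the scaling as deposited or quantile normalization only Cd74 and H2-Aa remained, 3 members against 3.71% and 4.17% of all kept probe sets. The widest gaps were those of H2-Aa, 2.04 and 1.76 log2 units, and of Cd74, 1.79. H2-Ab1 differed less, by 0.50 and 0.66. Of the 11 members kept, 10 read highest on Het replicate 2, as did 49.8% of all kept probe sets; the exception was Tapbp, and the 10 include the _a_at probe set of H2-Ab1 that the filter kept only with that array. That share of all kept probe sets was lower with other scalings, at 30.5% as deposited and 33.5% with quantile normalization, and the 8 class II probe sets all read highest on Het replicate 2 there too. Within the class I group, the Het replicate 1 array was below WT by all 5 probe sets kept, with a median of -0.33, and Het replicate 2 above WT by 4, with a median of 0.42. Over both groups 8 members kept were below WT in Het replicate 1, against 50.1% of all kept probe sets, and 10 above WT in Het replicate 2, against 63.3%. For Psmb8 the difference of Het replicate 2 from WT was 0.23 after centring and -0.005 with the scaling as deposited.

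**Figure D3:**
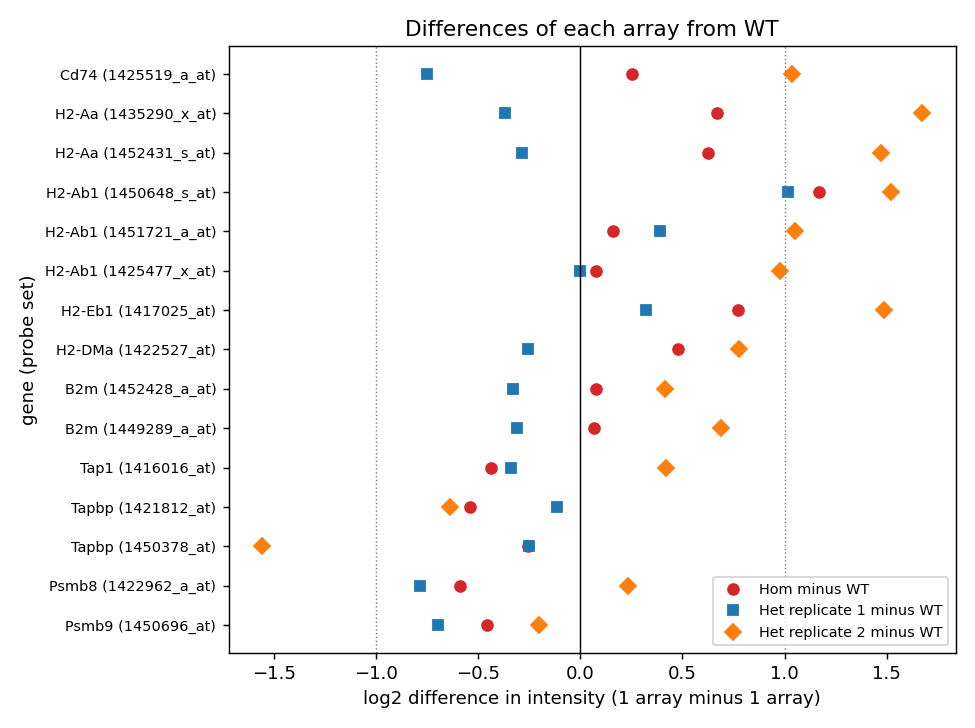
Log2 difference in intensity from the WT array for Hom (circles), Het replicate 1 (squares) and Het replicate 2 (diamonds), for the 15 member probe sets above the floor on at least 2 arrays; dotted lines mark 2-fold. The class II probe sets lie to the right of 0 in Hom and Het replicate 2, while Tapbp lies to the left on all 3 arrays.

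The difference of Hom from the Het mean gave a class II median of -0.04 and a class I processing median of -0.17, against -0.11 over all probe sets kept. That mean joined 2 unlike arrays, for Hom lay below Het replicate 2 at all 8 class II probe sets and above Het replicate 1 at 7 of 8. The exception was the _a_at probe set of H2-Ab1. No member kept read highest on Hom, as 13.1% of all kept probe sets were. At least 2-fold higher in Hom than in the mean of the Het arrays were 0 members, against 0.471%, and at least 2-fold lower also 0, against 1.01%.

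Further genes of the class II pathway were taken from a list of 25, of which 20 had a probe set and 15 were kept. Relative to WT, 5 of the 15 were higher in Hom, with a median of -0.10, and 0 passed limma's test for Het minus WT. For this list and those below, the share of all kept probe sets above WT in Hom was 46.2%. Cd86, a costimulatory ligand on antigen-presenting cells, was the highest kept gene in Hom minus WT, at 73.7, 59.1, 85 and 35.2. WT was below the other 3 arrays, as for H2-Ab1. At a mean intensity of 63.2, Cd86 passed the filter only through Het replicate 2, its highest array. The lowest in Hom minus WT was the NF-Y subunit Nfyb, at 52.6, 114, 52.9 and 92.6. Ciita, the class II transactivator, read 31.6, 32.5, 25 and 37.6 and lay under the filter, with WT the highest array. H2-Ea, the alpha chain partner of H2-Eb1, was dim, at 24.6, 10.8, 37.5 and 15.5, and its 2 readings above the floor were on Hom and Het replicate 2. The list held 6 lysosomal enzymes, grouped after their values were seen (Ctsb, Ctsd, Ctsl, Ctss, Lgmn and Ifi30), with Hom minus WT differences of -0.17 to 0.38. The protease Lgmn was the 1 above WT in Hom, at 375, 384, 442.5 and 289. The protease cathepsin S (Ctss) read 762, 667, 1091 and 829, and the thiol reductase Ifi30 read 144, 127, 541 and 163. After median centring all 6 had Het replicate 2 as the highest array, as did 49.8% of all kept probe sets. With the scaling as deposited that share was 30.5%. Centring shifted Het replicate 2 by 0.193 log2 units, Het replicate 1 by -0.063 and WT by -0.045. Het replicate 2 exceeded WT by 0.202 for Ctsb, 0.193 for Ctsd and 0.113 for Ctsl. For Lgmn it exceeded Het replicate 1 by 0.206. These 4 genes therefore did not read highest on Het replicate 2 with the scaling as deposited.

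Of 25 further class I pathway genes, 15 had a probe set and 10 were kept; 3 of the 10 were above WT in Hom, with a median of -0.18, and 0 passed limma's test for Het minus WT. Psmb10, the third catalytic subunit of the immunoproteasome, was the highest in Hom minus WT, at 168, 189, 195 and 142, unlike Psmb8 and Psmb9. The lowest was the disulfide isomerase Pdia3 of the peptide-loading complex, at 334, 332, 322 and 541. The classical heavy chains read 435, 403, 624 and 527 for H2-K1 and 903, 774, 1049 and 770.0 for H2-D1, both by probe sets that can bind several transcripts. All 14 standard proteasome genes listed were kept, and 5 of them were above WT in Hom (median -0.07). Psmb6 was the highest, at 1108, 1085, 1773 and 979, and Psma7 the lowest, at 368, 369.7, 672 and 519.8.

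The interferon-gamma pathway list had 20 of 22 genes with a probe set and 11 kept, of which 4 were above WT in Hom, with a median of -0.09 in Hom; the medians of the Het arrays were -0.14 and -0.10, and 0 passed limma's test for Het minus WT. Igtp, an interferon-induced GTPase, had the lowest Hom minus WT difference, at 167, 152, 240.3 and 339. The receptor chain Ifngr1 had the highest, at 342, 276, 355 and 250.5. A further 2 dimmer GTPases under the filter, named after their values were seen, resembled Igtp in that WT was the highest array: Gbp3 read 31.9, 32.4, 33.5 and 116, and Irgm2 read 10.9, 32, 69.5 and 101. Of the brighter GTPases kept, Gbp2 (61.7, 51, 71.6 and 89.4) and Iigp1 (277, 268, 298 and 343) also had WT highest. Gbp7 read 121, 108, 85.9 and 109.5 and Irgm1 read 123, 76.6, 146 and 112, so WT was not their highest array. Ifng itself was at or under the floor on all but 1 array, where it read 19.1 in Hom.

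Markers of the cells that carry class II were summed over each list, with 1 probe set per gene. The 7 leukocyte markers summed to 767, 722, 2281 and 772 on the arrays in the same order. The 17 macrophage markers summed to 4127, 3627, 8147 and 4269, with 8, 4 and 13 of the 14 kept above WT in Hom, Het replicate 1 and Het replicate 2. Of all kept probe sets, 46.2% were above WT in Hom, 50.1% below WT in Het replicate 1 and 63.3% above WT in Het replicate 2. The class II readings on Het replicate 2 thus came with high leukocyte and macrophage sums, whereas on Hom these sums differed from those of WT by less than on either Het array. Fcer1g, the Fc receptor gamma chain, was the macrophage marker with the highest Hom minus WT difference, at 81.2, 107, 324 and 33.5, and the complement subunit C1qb the lowest, at 313, 316, 525.5 and 433. Lgals3, a lectin of activated macrophages, read 91.5, 78.4, 588 and 82.2. Cd52, a surface peptide of leukocytes, read 134, 83.5, 431 and 89.7 and was the leukocyte marker with the highest Hom minus WT difference, while Rac2, at 76.9, 96.8, 153 and 108, was the lowest.

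Lymphoid and dendritic markers were dim. Of 10 dendritic cell markers with a probe set, 1 was kept (Cd83, at 64, 67.8, 99 and 63.2), and their sums were 432, 466, 451 and 437. The 11 B cell markers summed to 712, 676, 605 and 793, with 4 kept. Blk, a kinase of B cells, was highest in Hom minus WT, at 96.9, 91, 56.7 and 82.6, and the transcription factor Ebf1 lowest, at 120, 137, 102 and 237. Of the 15 T and NK cell markers, whose sums were 531, 471, 539 and 479, 6 were at or under the floor on every array (Cd3e, Cd3g, Cd2, Cd8b1, Cd28 and Nkg7), and the 1 kept was Thy1, which the fibroblast list also holds. The sums of the 4 erythroid markers, of which 2 were kept, were 1316, 1066, 3046 and 1159. The 12 cardiomyocyte markers summed to 35140, 47610, 20740 and 36880, the 11 endothelial markers to 5935, 6585, 5362 and 7020, and the 12 interstitial and fibroblast markers, which include defining genes of valve tissue, to 51880, 53570, 41620 and 63610. Within the cardiomyocyte list Myl7 went against the sum, being highest on Het replicate 2, at 1271, 1306, 3040 and 1621. The part of cell makeup in the class II differences was not tested.

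**Figure D4:**
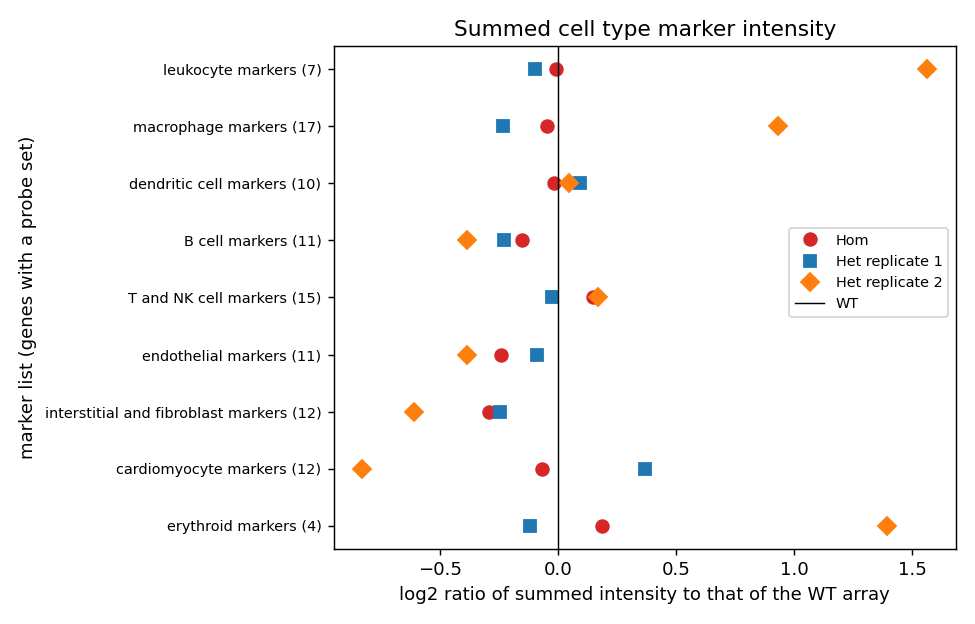
Log2 ratio of each list's summed intensity to that of the WT array, for Hom (circles), Het replicate 1 (squares) and Het replicate 2 (diamonds), with the number of genes that had a probe set in brackets. Leukocyte, macrophage and erythroid sums are high on Het replicate 2 alone, at 2281, 8147 and 3046, and its cardiomyocyte sum is the lowest, at 20740.

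The genes whose pattern was most like the class II group were found by the root mean square distance, over the 4 arrays, between each probe set's log2 values centred on their own mean and the mean centred profile of the 6 class II probe sets kept. That profile was 0.10, -0.45, 0.86 and -0.51 on the arrays in the order above. H2-Eb1 lay at 0.097 from it and the _s_at probe set of H2-Ab1 at 0.376, the farthest of the 6. The 8 nearest probe sets of other genes lay closer than any class II probe set, at 0.033 to 0.078. They were Gkap1, Cep68, Vsir, an immune checkpoint receptor of myeloid and T cells, the scavenger receptor family member Scara3, Pnrc2, the cysteine dioxygenase Cdo1, Clca3a1 and Gpatch4. Vsir read 168, 106, 265 and 107, and Gkap1 read 185, 123, 320.4 and 116. Cdo1 (mean intensity 80.8) and Clca3a1 (64.2) passed the filter only through Het replicate 2, on which the class II profile was also highest. With 4 arrays, nearness of this kind is a description.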

How the data were processed

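The deposited table held 1 intensity per probe set and array on a linear scale, as its values show; the software that made it is not given in the sources used here. The authors' values had a trimmed mean of 150.1 on every array (2% of probe sets left out at each end), while medians were 65.5 (Hom), 64.5 and 54 (Het replicates 1 and 2) and 63.7 (WT). Arrays were scaled to 1 median, the geometric mean of their own, floored at 19 and log2 transformed. Gene names came from the platform annotation, brought up to date through gene identifiers; 20380 had 1 gene (20351 identifiers matched the GRCm38.p6 table), 691 several and 1555 none, and 64 control probe sets were left out. Those with a mean of at least 62.5 were tested for Het minus WT with limma 3.58.1 in R 4.3.3 (lmFit and eBayes, 3 group means, Benjamini-Hochberg adjustment, threshold 0.05), and the fit was tested on simulated data. Contrasts with Hom or between single arrays have no test. Precision is limited by the number of arrays.

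All members were named. In each other list the highest and lowest kept gene in Hom minus WT, and those 2-fold apart, could be named; for the likeness measure it was the 8 nearest. Ciita, H2-Ea, Ctss, Lgmn, Ifi30, H2-K1, H2-D1, Ifng, Gbp2, Gbp3, Irgm2, Gbp7, Irgm1, Iigp1, Lgals3, Cd83 and Myl7 were singled out with their values known. Each list gene was read by its brightest probe set. The members and lists were chosen with earlier results of these data known. Alternatives were other scalings, filters and floors, 1 probe set per gene, other fits, and leaving out each Het array. Plots used matplotlib 3.10.9 (Python 3.11.15).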

Additional observations from a re-analysis of the deposited data

How the results depend on the processing

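Hom minus WT kept its sign for the class II median under every alternative run, between 0.55 and 0.72 log2 units. This contrast chose the genes, and all 8 class II probe sets were above WT in Hom. Filters, 1 probe set per gene or leaving out a Het array could therefore not change that sign. The Hom minus WT median for class I processing was 0.068 with the filter at the 75th percentile, which left 3 probe sets, and below 0 otherwise. With that filter 0 members were 2-fold apart in Hom minus WT and 0 in Het minus WT. The class I processing median for Het minus WT, 0.04 as reported, was -0.069 with the scaling as deposited, -0.02 after quantile normalization and -0.12 with 1 probe set per gene. The class II median for Hom minus Het, -0.04 as reported, was 0.11 with the scaling as deposited, 0.11 after quantile normalization and 0.017 with the filter at the 75th percentile. Leaving out each Het array in turn put the class II median between -0.29 and 1.47 for Het minus WT and between -0.79 and 0.91 for Hom minus Het, and the class I processing median between -0.33 and 0.42 and between -0.62 and 0.19; in each, the value without Het replicate 2 opposed the reported sign. For class II in Het minus WT the opposed sign came with the redone filter, as Het replicate 1 gave 0.02 over the 6 probe sets first kept. With a Het array left out, members at least 2-fold apart numbered 1 to 6 for Het minus WT and 1 to 2 for Hom minus Het. Limma called 3 probe sets for Het minus WT after quantile normalization (Ppbp, Eln and Clec1b, named after their values were seen), and 0 under the 8 other settings tested. With 1 Het array left out no residual degrees of freedom remain, so no test was made. No paired analysis was possible because WT and Hom had 1 array each and carried no replicate numbers. The cause of these changes was not tested.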
